A study of Mus musculus with 21 samples.

Results

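Genes that mark red blood cell precursors, platelets and neutrophils were followed through RNA sequencing libraries of T cells selected from mouse spleen. The set held 37 genes taken by symbol, of which 36 were matched to an Ensembl ID among the 51201 genes of the deposited tables. Matched members were 14 of 15 erythroid, 8 of 8 platelet and 14 of 14 neutrophil genes, and 1 erythroid member was not analysed here. The rule for membership was a gene's known lineage, but the members were chosen with earlier results of these data known. Each level is given in CPM, each gene's deposited count relative to its library's total as scaled by edgeR's TMM, unless another unit is named.

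The spleen filters blood, and in young mice its red pulp still makes red blood cells. When blood formation outside the bone marrow expands, precursors of red cells, megakaryocytes (the cells that shed platelets) and granulocytes are known to accumulate there together. Libraries of selected T cells can carry RNA of cells that escaped selection, so transcripts of each lineage may be read in them. Which cells the reads of the members came from was not tested. In bulk samples of this kind, fewer cells of a type and less RNA per cell cannot be told apart. The question put to the data was whether the 3 lineages were high together in single libraries, and whether they differed by genotype.

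There were 4 groups of C57BL/6J mice at postnatal day 35. CD4+ T cells came from 6 L-gp130fl/+;CD4Cre+/- mice (L-gp130) and from 6 CD4Cre+/- mice (controls), and CD8+ T cells from 3 L-gp130 and 6 control mice. L-gp130 is a constitutively active form of gp130, the signalling chain shared by receptors of the interleukin-6 family, and all 4 groups carried the Cre transgene, driven by the Cd4 promoter, which is active in the common precursors of both T cell lineages. By the labels, 4 of 6 L-gp130 and 1 of 6 control CD4 libraries were from males, as were 2 of 3 L-gp130 and 4 of 6 control CD8 libraries. CD4+ cells were selected positively with magnetic beads and CD8+ cells by removal of other cells, both after a step that lyses red cells. The labels number the mice within each group. L-gp130 numbers 2 and 3 and control numbers 2 and 4 differ in sex between CD4 and CD8 libraries, by label and by Xist and Ddx3y reads. The CD4 and CD8 libraries of those numbers thus did not come from 1 mouse. For the other numbers, whether they did is not given.

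Gene table totals ran from 17781085 to 21226510 counts in L-gp130 CD4 libraries and from 27855757 to 35869208 in control CD4 libraries. They ran from 17217364 to 19476881 in L-gp130 CD8 libraries and from 17719183 to 19286396 in control CD8 libraries. Cd4 read 531 to 799 CPM in L-gp130 CD4 and 669.6 to 796 CPM in control CD4 libraries, against 9.83 to 10.98 CPM in L-gp130 CD8 and 3.32 to 20.4 CPM in control CD8 libraries, so the selected cells matched their labels. Il6st, the gene for gp130, read 132 to 339 CPM in L-gp130 CD4 and 348 to 395 CPM in control CD4 libraries, and 169.7 to 193 CPM in L-gp130 CD8 and 239 to 291 CPM in control CD8 libraries. Its reads do not check the transgenic allele, whose sequence was not used here. Of the CD4 libraries, L-gp130 replicate 1 had the lowest median correlation with its group (0.966 across genes, against 0.977 to 0.983 for the other 5), and control replicate 5 is labelled female but had 0.118 CPM of Xist and 121 CPM of Ddx3y. Results in CD4 cells were therefore also computed without both libraries.

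Promoter sequence is shown for the erythroid members that were higher in L-gp130 CD8 libraries, because many erythroid promoters carry the word bound by GATA1, itself a member. RefSeq promoters of build GRCm38.p6, from 250 bases before to 50 bases after a gene's start, were at hand for 32 members. The word was searched as AGATAA or TGATAA on either strand, words that differ at their first base and may share bases with each other where both are present. It stood in 9 of 11 erythroid, 3 of 8 platelet and 2 of 13 neutrophil promoters, against 18.6% of all 32851 promoters. Among the erythroid members called in CD8 cells it stood in 5 of 6, the exception being Gata1, while Car1 and Car2 were not searched. The word CCACACCC, which KLF1 is known to bind, stood in 0 of those 6 and in 3.56% of all promoters. A match is a description of the letters and not a site of binding. The stretches below run 5′ to 3′ on the gene's strand, up to 30 bases either side of the word nearest the gene's start and upstream of it, with the word in capitals in the direction in which it reads there. They lie at chr8:84901872-84901937 (+) for Klf1, chr4:119190027-119190092 (-) for Ermap, chr4:134864463-134864528 (+) for Rhd, chr2:121037068-121037127 (-) for Epb42 and chr4:46404184-46404226 (-) for Hemgn. The stretch of Hbb-bs at chr7:103828103-103828168 (-) is added as that of a globin gene, which was not called.
Klf1: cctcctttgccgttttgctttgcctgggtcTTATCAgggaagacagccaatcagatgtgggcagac
Ermap: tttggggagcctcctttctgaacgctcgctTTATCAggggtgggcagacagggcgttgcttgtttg
Rhd: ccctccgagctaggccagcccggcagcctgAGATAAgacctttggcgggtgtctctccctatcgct
Epb42: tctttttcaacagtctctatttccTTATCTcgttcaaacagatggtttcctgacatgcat
Hemgn: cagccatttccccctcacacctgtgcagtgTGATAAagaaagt
Hbb-bs: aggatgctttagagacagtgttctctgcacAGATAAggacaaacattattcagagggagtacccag

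In CD8 libraries, 8 erythroid members were higher in L-gp130 mice: the transcription factors Klf1 and Gata1, the nuclear protein gene Hemgn, the carbonic anhydrases Car1 and Car2, and 3 of 4 membrane members (Ermap, Rhd and Epb42). The fourth membrane member, Slc4a1, the 4 globin genes, Alas2 and all platelet and neutrophil members tested were not called. Of 34 members tested, 8 rose and 0 fell at an adjusted p under 0.05 (edgeR's quasi-likelihood test with sex as covariate, 2-sided, Benjamini-Hochberg over 14254 genes). Of all genes tested, 21% were called, 10.5% higher and 10.5% lower. All 8 were erythroid, out of 14 erythroid members tested. Estimates for the 14 had a median of 1.38 on the log2 scale, against -0.01 over all genes. In 8 of the 34 members tested, every L-gp130 library lay above every control library, against 11.7% of all genes. These were 7 of the 8 called members and the neutrophil member Mmp8, which was not called. In 0 of the 34 did every L-gp130 library lie below every control, against 12.4% of all genes.

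Both regulators among the erythroid members rose. Klf1, the transcription factor that switches on much of the adult red cell programme, read 30.1, 16.2 and 19.9 CPM in the L-gp130 libraries, against a lowest of 4.96, a median of 6.54 and a highest of 10.9 CPM in controls. Its log2 fold change was 1.63 ± 0.25 (SE, edgeR, adjusted p = 0.0019). Gata1, which is needed for red cell and megakaryocyte maturation, read 24.4, 15.9 and 12.7 CPM in L-gp130 libraries, against 3.97, 7.74 and 10.4 CPM as lowest, median and highest of the controls. The log2 fold change of Gata1 was 1.21 ± 0.25 (edgeR, adjusted p = 0.00691). Neither gene's groups overlapped, and replicate 1 was the highest L-gp130 library for both. Hemgn, a nuclear protein of blood cell precursors, read 11.5, 4.2 and 3.72 CPM in L-gp130 libraries, against 1.87 to 2.95 CPM in controls (log2 fold change 1.55 ± 0.35, edgeR, adjusted p = 0.0116).

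Both carbonic anhydrases rose as well. Car1, a carbonic anhydrase made from early erythroid stages on, read 187, 121 and 141 CPM in L-gp130 libraries, against 32.3, 49.7 and 66.1 CPM as lowest, median and highest of the controls. Its mean was 149.6 ± 34.2 CPM for L-gp130 mice and 49.8 ± 13.04 CPM for controls (SD, n = 3 and n = 6), with a log2 fold change of 1.59 ± 0.22 (SE, edgeR, adjusted p = 0.00153). Car2, a second carbonic anhydrase that other tissues make too, read 138.5, 72.2 and 63.4 CPM, against 19.3 to 34.6 CPM in controls (log2 fold change 1.73 ± 0.25, edgeR, adjusted p = 0.0021). For both enzymes the lowest L-gp130 library was well above the highest control.

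Ermap, an erythroid membrane protein that carries a blood group antigen, read 88.7, 40.6 and 42.2 CPM in L-gp130 libraries and 8.1 to 17.8 CPM in controls. The log2 difference was 1.95 ± 0.27 (edgeR, adjusted p = 0.00147). Rhd, the Rh blood group protein of the red cell membrane, read 7.17, 3.8 and 2.35 CPM, against 0.386 to 1.09 CPM in controls (log2 fold change 2.45 ± 0.36, edgeR, adjusted p = 0.00147). Again no control library reached the lowest L-gp130 library. Epb42, which ties the membrane to its skeleton, was the exception on overlap: 3.79, 0.557 and 1.14 CPM in L-gp130 libraries, against 0 to 0.926 CPM in controls. Its log2 fold change of 2.90 ± 0.86 rested on few counts, 106 over the L-gp130 libraries and 26 over the controls (edgeR, adjusted p = 0.0386). Leaving out L-gp130 replicate 1, the highest library for all 8 genes, left 5 called (Rhd, Ermap, Car1, Car2 and Klf1), while Epb42, Gata1 and Hemgn had adjusted p of 0.307, 0.0571 and 0.0822 (edgeR). Leaving out L-gp130 replicate 3 or control replicate 1, 2, 3, 5 or 6 also ended the call of Epb42 (adjusted p 0.051 to 0.133, edgeR).

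**Figure D1:**
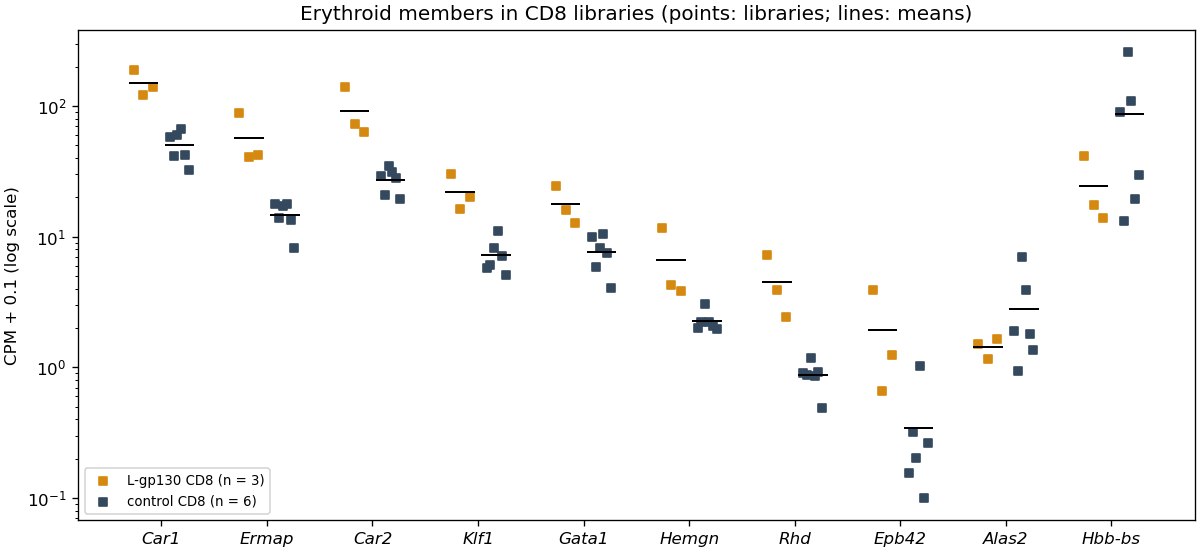
CPM plus 0.1 (log scale) of 10 erythroid members in CD8 libraries, with 1 point per library and a line at each group's mean (L-gp130, n = 3, left of control, n = 6). From Car1 to Rhd the L-gp130 points lie above all control points, those of Epb42 overlap, and those of Alas2 and Hbb-bs lie within or below the control range.

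The other 6 erythroid members were not called. Hbb-bs, an adult beta globin gene, read 41.4, 17.5 and 13.8 CPM in L-gp130 CD8 libraries, against 12.99, 59.5 and 257.5 CPM as lowest, median and highest of the controls. Hba-a1, an alpha globin gene, read 22.4, 8.41 and 8.47 CPM, against 10.4, 31.1 and 133 CPM. The L-gp130 libraries sat in the lower part of the control range or, for Hba-a1 in replicates 2 and 3, below it, and control replicate 3 was the highest library for both. Log2 fold changes of the 4 globin genes ran from -1.88 to -1.30, with SEs of 0.97 to 1.05, and none was called (edgeR, adjusted p 0.245 to 0.397). Alas2, which starts haem synthesis in red cells, read 1.41, 1.06 and 1.54 CPM in L-gp130 libraries and 0.836 to 6.84 CPM in controls (log2 fold change -0.93 ± 0.58, edgeR, adjusted p = 0.281). Slc4a1, the anion exchanger band 3, read 5.71, 1.47 and 1.6 CPM, against 0.325 to 4.22 CPM (log2 fold change 0.997 ± 0.748, edgeR, adjusted p = 0.375).

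Globin reads are split among near copies, so single globin genes are uncertain: of the 31-base words of Hba-a2 transcripts 92.6% also stand in Hba-a1, and of those of Hbb-bt 59.4% stand in Hbb-bs. The sum over the 4 globin genes is less affected. It was 99.8, 43.1 and 39.3 CPM in L-gp130 CD8 libraries, against 37.7 to 661.8 CPM in control CD8 libraries. Counting per length, in TPM (Salmon's length-corrected transcript share), the ratio of Hbb-bs to Car1 was 0.517, 0.339 and 0.229 in L-gp130 CD8 libraries and 0.731 to 10.1 in controls, with no overlap. Ermap as denominator gave ratios of 3.13 to 4.46 in L-gp130 and 9.0 to 144 in control CD8 libraries. These ratios were taken after the values were seen and were not tested.

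No platelet member was called in CD8 libraries. Pf4, a chemokine of platelet granules, read 3.43, 3.95 and 2.4 CPM in L-gp130 libraries, against 1.71, 3.81 and 4.84 CPM as lowest, median and highest of the controls. Its log2 fold change was -0.15 ± 0.31 (edgeR, adjusted p = 0.773). Itga2b, the alpha chain of the platelet fibrinogen receptor and also a marker of early progenitors, read 13.1, 15.9 and 11.9 CPM, against 6.5 to 17.4 CPM (log2 fold change 0.10 ± 0.25, edgeR, adjusted p = 0.811). Of 8 platelet members 0 were called, 0 had an unadjusted p under 0.05, DESeq2 and limma-voom called 0, and their median log2 fold change was -0.01. Clec1b, a platelet activating receptor, had the lowest estimate, -0.91 ± 0.45 (edgeR, adjusted p = 0.172).

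Neutrophil members in CD8 libraries differed in direction without a call in edgeR or limma-voom, while DESeq2 called Ngp and Ltf lower. Elane and Mpo, the elastase and myeloperoxidase of azurophil granules that promyelocytes make, had estimates near 0. Mpo read 28.8, 23.8 and 20.1 CPM in L-gp130 libraries, against 10.03, 18.6 and 54.3 CPM as lowest, median and highest of the controls (log2 fold change -0.06 ± 0.52, edgeR, adjusted p = 0.95). Elane read 6.87, 4.36 and 5.21 CPM, against 1.65, 4.23 and 14.3 CPM (log2 fold change -0.07 ± 0.61, edgeR, adjusted p = 0.953). Estimates were below 0 for 6 genes of specific granules and of the cytosol (Camp, Ngp, Ltf, Lcn2, S100a8 and S100a9). They ran from -1.82 to -1.05, with adjusted p of 0.091 to 0.38 (edgeR). S100a8, a chain of calprotectin, read 2.02, 2.28 and 3.6 CPM in L-gp130 libraries, against 0.771, 6.28 and 11.3 CPM in controls, and S100a9 read 2.17, 2.74 and 3.6 CPM, against 1.27, 8.5 and 16.2 CPM. For both genes control replicate 6 was the 1 library below every L-gp130 library. Without it, Camp, Ngp, S100a8 and S100a9 were called lower, and without control replicate 5, Ltf was. Mmp9, a gelatinase, read 2.12, 1.87 and 1.54 CPM, against 1.65 to 3.01 CPM in controls, and Mmp8, a collagenase, 2.27, 2.23 and 2.75 CPM, against 0.386 to 1.97 CPM. Only Mmp8 had no overlap, without a call (log2 fold change 1.01 ± 0.44, edgeR, adjusted p = 0.131). Mmp8, also a granule gene, thus went the other way from the 6 genes above. Ly6g and Retnlg had too few counts in CD8 libraries to be tested.

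In CD4 libraries no erythroid or neutrophil member was called by genotype, and members varied many-fold within both groups. Of 34 members tested, 1 rose (Gp1bb) and 0 fell (edgeR, as above, over 15016 genes), where 18.9% of all genes were called, 11.1% higher and 7.75% lower. At an unadjusted p under 0.05 there were 14 members, all higher in L-gp130: 7 erythroid, 3 platelet and 4 neutrophil. The share of all genes at that unadjusted p was not counted, so the 14 have no baseline here. DESeq2 called 5 higher (Car2, Gata1, Hemgn, Gp1bb and Lcn2) and limma-voom 0. With a block for the replicate number 12 were called higher, 8 of them erythroid. No member's groups were free of overlap with L-gp130 higher, against 7.68% of all genes, and none with L-gp130 lower, against 5.85%. Without the 2 CD4 libraries that stood apart the count was again 1.

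**Figure D2:**
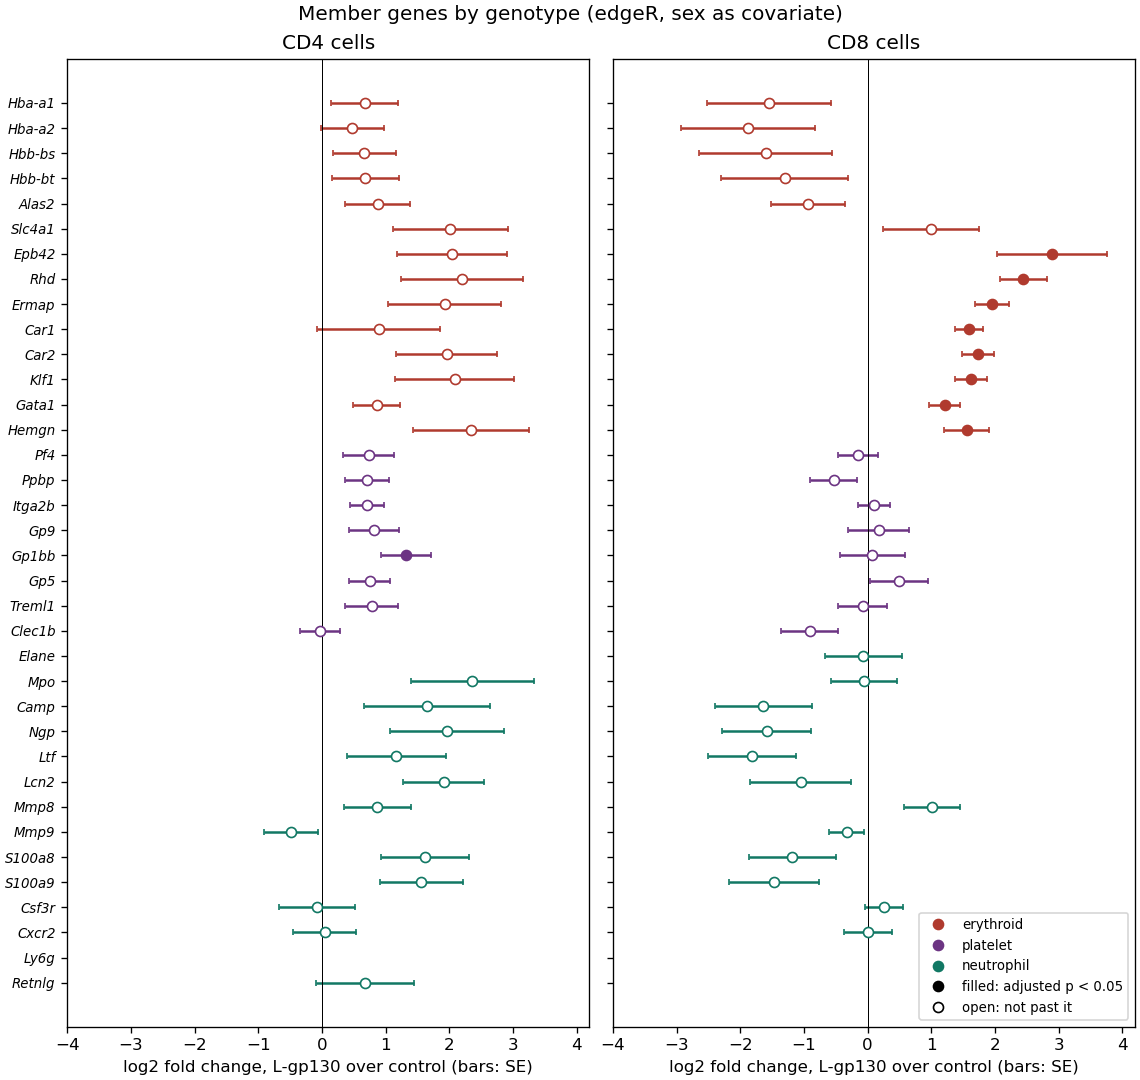
Log2 fold change (L-gp130 over control, bars SE) of each tested member in CD4 cells (left) and CD8 cells (right), filled where the adjusted p was under 0.05. In CD8 cells 8 erythroid members are filled, in CD4 cells Gp1bb alone, and CD4 estimates are mostly above 0 with wide bars.

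Hbb-bs in CD4 cells read 6877, 3461, 6394, 2802, 3465 and 14456 CPM in L-gp130 replicates 1 to 6, against 3705, 1834, 4073, 9799, 5896 and 3874 CPM in control replicates 1 to 6. L-gp130 replicate 6 was the highest and control replicate 2 the lowest, with the other libraries of both groups interleaved. The log2 fold change was 0.66 ± 0.50 (SE, edgeR, adjusted p = 0.38), and it was -0.10 without L-gp130 replicate 6. Hba-a1 had 1295, 2817 and 7702 CPM as lowest, median and highest in L-gp130, against 918, 2132 and 5489 CPM in control libraries (log2 fold change 0.67 ± 0.53, edgeR, adjusted p = 0.406, and -0.04 without L-gp130 replicate 6). The sum over the 4 globin genes ran from 6531 to 36031 CPM in L-gp130 and from 4674 to 25649 CPM in control CD4 libraries.

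Alas2 had 141.5, 227 and 665.5 CPM as lowest, median and highest in L-gp130, against 65.2, 155.7 and 410.7 CPM in control CD4 libraries (log2 fold change 0.88 ± 0.51, edgeR, adjusted p = 0.254). Klf1 had 4.33, 24.7 and 95.1 CPM, against 1.9, 17.7 and 29.2 CPM (2.09 ± 0.93 on the log2 scale, edgeR, adjusted p = 0.146). Gata1 had 12.9, 19.3 and 35.7 CPM, against 6.92, 15.3 and 20.2 CPM (0.86 ± 0.37, edgeR, adjusted p = 0.124). These 3 genes overlapped broadly between genotypes. Car2 had 41.3, 216 and 804 CPM in L-gp130, against 21.7, 130.0 and 241 CPM in controls (1.96 ± 0.80 on the log2 scale, edgeR, adjusted p = 0.114). Hemgn had the largest erythroid estimate, 2.34 ± 0.91 (edgeR, adjusted p = 0.0977). All 14 erythroid estimates were above 0, with a median of 0.67 for the 4 globin genes and Alas2 and of 2.02 for the other 9. These sizes depend on the sex term. The median over all 14 was 1.41, and 0.93 with the sex of control replicate 5 taken from its reads. Without a sex term the estimate was 1.31 for Klf1 and 0.36 for Hbb-bs.

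Spread within a genotype differed widely among erythroid members. Each globin gene's highest library was 5.16 to 6.4 times its lowest in L-gp130 and 5.34 to 5.98 times in control CD4 libraries. Gata1 varied less, by 2.76 times in L-gp130 and 2.92 times in controls, and Alas2 by 4.7 and 6.3 times. For Slc4a1 the ratio was 25.1 in L-gp130 and 22.6 in controls, for Hemgn 30.5 and 18.1, and for Rhd 29.99 and 25.8. Slc4a1 read 714, 422, 785, 77.2, 238 and 1936 CPM in L-gp130 replicates 1 to 6, against 70.4, 29.4, 355, 667, 557 and 235 CPM in control replicates 1 to 6. L-gp130 replicate 4 and control replicates 1 and 2 were the lowest of their groups for Slc4a1, with globin sums of 6531 CPM and of 9455 and 4674 CPM.

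Platelet members in CD4 cells had a median estimate of 0.74, with 7 of 8 above 0. Gp1bb, a chain of the platelet receptor for von Willebrand factor, read 3.8, 0.908, 1.67, 2.3, 1.55 and 2.65 CPM in L-gp130 replicates 1 to 6, against 1.27, 0.272, 0.486, 0.642, 0.855 and 0.671 CPM in control replicates 1 to 6. The groups overlapped through L-gp130 replicate 2 and control replicate 1. Its log2 fold change was 1.32 ± 0.39 (edgeR, adjusted p = 0.0344), its exons overlap those of Sept5, and reads of the unstranded libraries cannot be told apart where they do. The call was lost without L-gp130 replicate 6 or control replicate 1, 3, 4 or 6 (adjusted p 0.0579 to 0.329, edgeR). Pf4 had 1.77, 4.77 and 8.2 CPM as lowest, median and highest in L-gp130, against 1.63, 2.29 and 4.5 CPM in control CD4 libraries (0.73 ± 0.39 on the log2 scale, edgeR, adjusted p = 0.213). Itga2b had 7.75, 12.3 and 20.1 CPM, against 5.44, 7.58 and 11.3 CPM (0.71 ± 0.27, edgeR, adjusted p = 0.0881). Neither passed the threshold. Gp9, Gp5, Ppbp and Treml1 had estimates of 0.71 to 0.82 and were not called (edgeR, adjusted p 0.124 to 0.206).

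For S100a8 and S100a9 in CD4 cells, L-gp130 replicates 1 and 6 stood far above all other libraries. S100a8 read 75.7, 11.1, 8.39, 12.7, 10.3 and 46.4 CPM in L-gp130 replicates 1 to 6, against 15.4, 6.32, 4.2, 13.1, 3.18 and 6.15 CPM in control replicates 1 to 6. Its log2 fold change was 1.62 ± 0.69 (SE, edgeR, adjusted p = 0.129). S100a9 had 96.7 and 61.6 CPM in L-gp130 replicates 1 and 6 and 10.5 to 20.5 CPM in the other 4, against 4.57 to 18.7 CPM in controls (1.56 ± 0.66 on the log2 scale, edgeR, adjusted p = 0.124). Without L-gp130 replicate 6 the estimates were 0.76 for S100a8 and 0.74 for S100a9. Outside replicates 1 and 6 the L-gp130 libraries lay among the controls for S100a8, while for S100a9 replicate 5, at 20.5 CPM, lay above the highest control. Lcn2, an iron-binding granule protein, came nearest to the threshold (1.91 ± 0.63, edgeR, adjusted p = 0.0553). With single libraries left out its estimate ran from 0.59 to 2.996, and it was called in 4 of 12 such fits (without L-gp130 replicate 2, 3 or 4 or control replicate 1). Lcn2 was also called in DESeq2, in the fit that left sex out, and where control replicate 5 took its sex from the reads. Mmp9 had 3.63, 7.15 and 21.4 CPM as lowest, median and highest in L-gp130, against 10.8, 12.01 and 13.8 CPM in control CD4 libraries (log2 fold change -0.49 ± 0.42, edgeR, adjusted p = 0.452).

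The 2 high libraries did not share 1 neutrophil profile. L-gp130 replicate 6 led in genes of granule proteins: 10.9 CPM of Mpo, 3.14 CPM of Elane and 60.9 CPM of Ngp, against 5.23, 0.716 and 20.8 CPM in replicate 1. L-gp130 replicate 1 led in genes of receptors and of a secreted protein: 50.1 CPM of Csf3r, the receptor for granulocyte colony-stimulating factor, 13.6 CPM of Cxcr2, a chemokine receptor, and 22.8 CPM of Retnlg, against 10.3, 4.56 and 5.79 CPM in replicate 6. For Csf3r, replicate 6 lay within the control range of 8.87 to 18.0 CPM. Elane had 0.0549, 0.233 and 3.14 CPM as lowest, median and highest in L-gp130, against 0.0347, 0.129 and 0.202 CPM in control CD4 libraries, and, like Ly6g, was too low in CD4 cells to be tested. Mpo had 0.454, 0.894 and 10.9 CPM as lowest, median and highest in L-gp130, against 0.104, 0.446 and 1.79 CPM in control CD4 libraries (2.36 ± 0.96 on the log2 scale, edgeR, adjusted p = 0.111). The Mpo estimate was 0.15 without L-gp130 replicate 6 (edgeR, adjusted p = 0.939) and 3.92, with a call, without control replicate 1 (edgeR, adjusted p = 0.0473).

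**Figure D3:**
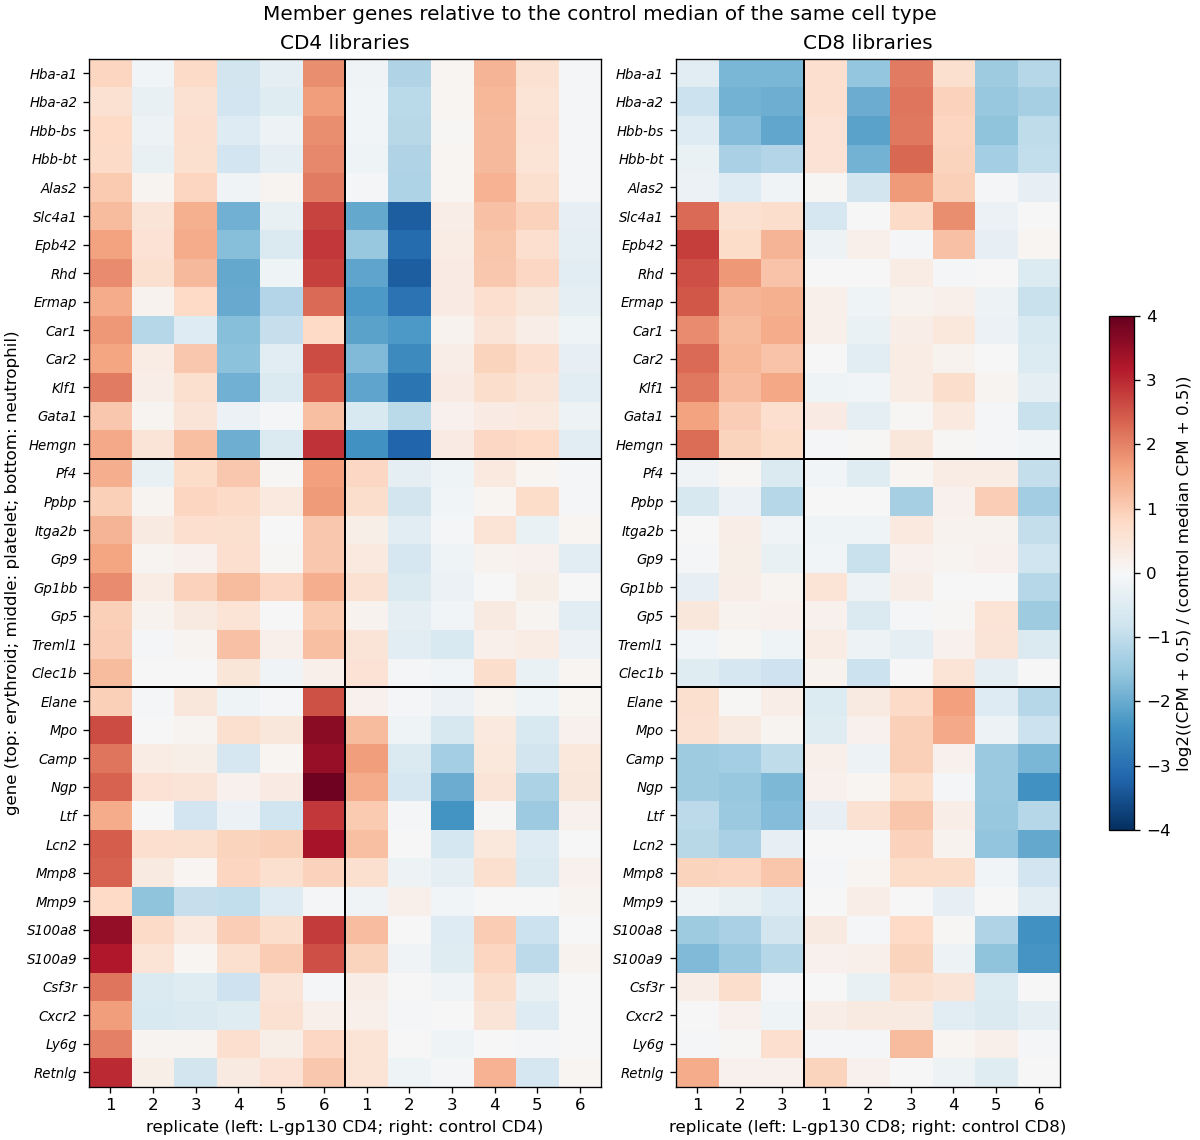
Log2 ratio of each matched member's CPM plus 0.5 to the control median of the same cell type (red higher, blue lower), with 1 column per library, L-gp130 left of the line and control right of it. L-gp130 CD4 replicates 1 and 6 are red in all 3 lineages, and in L-gp130 CD8 libraries the red block covers erythroid genes from Slc4a1 to Hemgn but not globins.

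To ask whether the lineages were high together, each library was given 1 level per lineage, the median over its members of the log2 ratio to the control median of the same cell type. Members with a mean of at least 0.5 CPM entered, which left out Elane and Ly6g in CD4 and Ly6g in CD8 cells. In CD4 cells, L-gp130 replicate 6 had levels of 2.18 (erythroid), 1.14 (platelet) and 2.69 (neutrophil), and L-gp130 replicate 1 had 1.38, 1.30 and 2.36. Both were above their group's median in all 3 lineages, as was 1 of 6 control libraries, replicate 4 (1.10, 0.29 and 0.51). L-gp130 replicate 1 also had the lowest T cell markers of its group, with 531 CPM of Cd4 against 733 to 799 CPM and 331 CPM of Cd3e against 425 to 495 CPM in the other 5, and the highest Cd8a, 93.7 CPM against 15.1 to 29.6 CPM. L-gp130 replicate 6 had 741 CPM of Cd4, 425 CPM of Cd3e and 28.3 CPM of Cd8a, and control replicate 4 had the lowest Cd4 and Cd3e of the controls, 669.6 and 389 CPM. The part of these differences in the lineage levels was not tested. Levels above the control median in all 3 lineages were found in 4 of 6 L-gp130 and 1 of 6 control CD4 libraries. That median comes from the same control libraries, so a low count among controls is partly built in. Neither these counts nor those above a group's own median were tested.

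Some other CD4 libraries were low within their own group. L-gp130 replicate 2 and control replicate 2 were each at or below their group's median in all 3 lineages. The levels of L-gp130 replicate 2 were still above the control median, at 0.14 (erythroid), 0.09 (platelet) and 0.27 (neutrophil). Those of control replicate 2 were -2.43, -0.43 and -0.11. In others the lineages diverged. L-gp130 replicate 4 had an erythroid level of -1.67 beside a platelet level of 0.72. Control replicate 1 had the highest platelet and neutrophil levels of its group, 0.55 and 0.97, beside an erythroid level of -1.64. In CD8 cells, 0 of 3 L-gp130 libraries were above their group's median in all 3 lineages, and 1 of 6 controls was, replicate 4. The L-gp130 CD8 libraries had erythroid levels of 2.01, 0.81 and 0.71, beside platelet levels of -0.12, 0.10 and -0.25 and neutrophil levels of -0.17, -0.31 and -0.34.

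**Figure D4:**
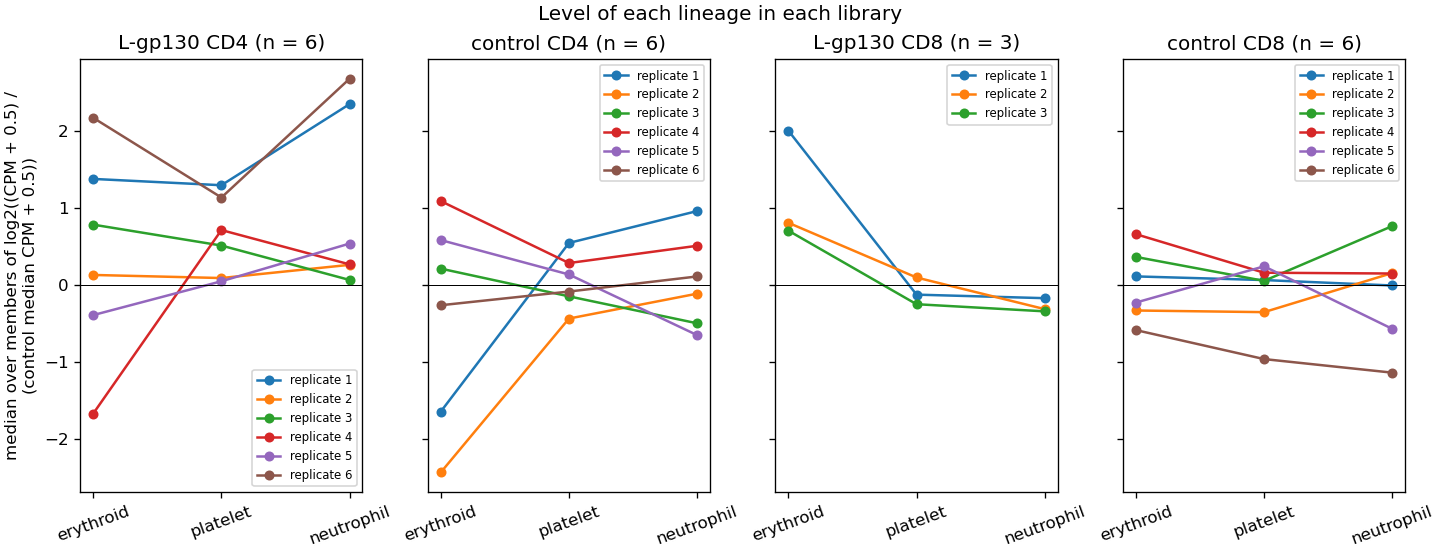
Median log2 ratio of each lineage's members to the control median, with 1 line per library and 1 panel per group, L-gp130 left of control for each cell type. The lines of L-gp130 CD4 replicates 1 and 6 lie above 1 throughout, those of L-gp130 CD4 replicate 4 and control CD4 replicates 1 and 2 start below -1, and those of L-gp130 CD8 libraries drop after the erythroid point.

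Across libraries of 1 group, 3 pairs of genes (Hbb-bs, Pf4 and S100a8) were correlated on the log2 scale in the 3 groups with 6 libraries, 9 relations in all. In L-gp130 CD4 libraries Pearson's r was 0.683 for Hbb-bs and Pf4 (exact permutation p = 0.131, Spearman's rho 0.657, p = 0.175, n = 6). It was 0.659 for Hbb-bs and S100a8 (exact permutation p = 0.244, rho 0.371, p = 0.497). For Pf4 and S100a8 it was 0.743 (exact permutation p = 0.0722, rho 0.714, p = 0.136). After Benjamini-Hochberg adjustment over the 9 relations the exact permutation p of Pearson's r was 0.392 to 0.433 for these 3, with r after leaving out the 2 libraries farthest from the median of 0.937, 0.553 and 0.901. In control CD4 libraries r was 0.464, 0.170 and 0.735 for the same pairs (exact permutation p = 0.347, 0.775 and 0.122, rho 0.371, -0.314 and 0.486, p = 0.497, 0.564 and 0.356) and turned to -0.281, -0.728 and -0.738 without 2 libraries, so those relations rest on them. In control CD8 libraries r was 0.427, 0.604 and 0.565 (exact permutation p = 0.389, 0.211 and 0.289, rho 0.257, 0.714 and 0.257, p = 0.658, 0.136 and 0.658). Without 2 libraries it was 0.252, 0.803 and -0.639, so the last rests on them. None of the 9 passed, with adjusted exact permutation p of 0.392 to 0.775 for r and 0.525 to 0.658 for rho.

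Taken as 1 set, members were called between control CD4 and control CD8 libraries about as often as all genes were. Among control mice, 14 of 35 members tested were higher and 3 lower in CD4 than in CD8 libraries (edgeR over all 21 libraries on Salmon reads summed per gene, adjusted p under 0.05), where 51.5% of 15750 genes were called, 24.3% higher and 27.2% lower. By lineage, 9 of 14 erythroid, 2 of 8 platelet and 3 of 13 neutrophil members were higher, and 0, 1 and 2 were lower. Cell type went with the method of selection, so cell type and method cannot be told apart. Hbb-bs read 1751 to 9728 CPM of those reads in control CD4 and 13.9 to 275 CPM in control CD8 libraries, or 5.45 ± 0.76 as a log2 difference (edgeR, adjusted p = 1.29e-05). Slc4a1 read 29.4 to 636.5 CPM in control CD4 and 0.344 to 4.29 CPM in control CD8 libraries, the largest difference among members (7.08 ± 1.07, edgeR, adjusted p = 3.15e-05). Alas2 and Epb42 differed by 5.59 and 6.57, and Rhd and Hemgn by 4.27 and 3.27.

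The other 5 erythroid members were not called between control CD4 and control CD8 libraries. Car1 read 4.97 to 38.5 CPM in control CD4 and 32.1 to 66.5 CPM in control CD8 libraries (-1.32 ± 0.67, edgeR, adjusted p = 0.115). Klf1, Gata1, Ermap and Car2 had estimates of 0.55 to 1.71. Without the sex covariate Car2 and Gata1 were called higher, Car2 was also called higher in 4 fits that left out 1 CD4 library, and without L-gp130 CD4 replicate 1 Car1 was called lower. Within neutrophil members the order turned: Elane read 0.0332 to 0.195 CPM in control CD4 and 1.77 to 15.1 CPM in control CD8 libraries (-5.85 ± 0.89, edgeR, adjusted p = 2.2e-05), and Mpo 0.0997 to 1.28 CPM and 11.5 to 58.9 CPM (-5.70 ± 0.83, edgeR, adjusted p = 1.88e-05). Mmp9, Cxcr2 and Retnlg were higher in control CD4 libraries by 2.29, 1.41 and 3.16. Of the platelet members, Ppbp and Clec1b were higher by 1.501 and 1.59 and Itga2b was lower by 0.82 in control CD4 libraries.

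Counted per length, the ratio of Hbb-bs to Car1 in TPM was 168 to 789 for L-gp130 and 303 to 1429 for control mice in CD4 libraries. In CD8 libraries it was below 1 for L-gp130 mice and up to 10.1 for controls, as given above. The ratio of S100a8 to Mpo was 38.1 to 227.5 for L-gp130 and 78.1 to 385.5 for control mice in CD4 libraries, but 0.745 to 1.87 for L-gp130 and 0.809 to 6.63 for control mice in CD8 libraries. For both ratios every CD4 library lay above every CD8 library. The ratio of Pf4 to Itga2b did not separate them, with 1.59 to 4.42 for L-gp130 and 2.34 to 4.45 for control mice in CD4 libraries, and 1.95 to 2.53 for L-gp130 and 2.15 to 3.21 for control mice in CD8 libraries.

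**Figure D5:**
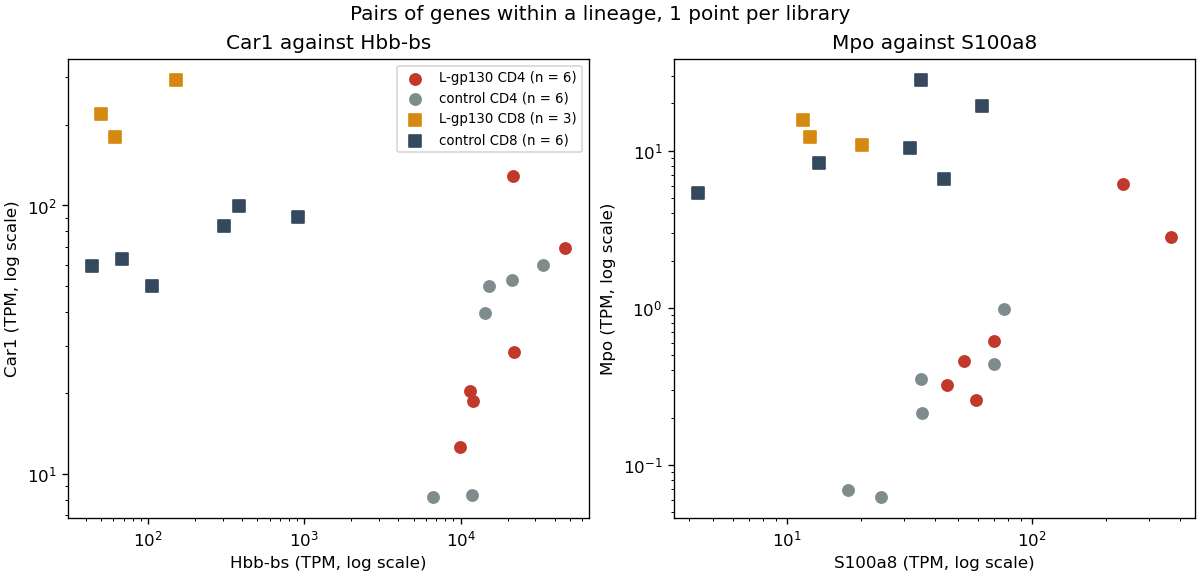
Car1 against Hbb-bs (left) and Mpo against S100a8 (right) in TPM on log axes, with 1 point per library, CD4 as circles and CD8 as squares. CD4 libraries lie at higher Hbb-bs than any CD8 library, their Mpo is mostly lower, and L-gp130 CD8 libraries have the highest Car1.

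Whether the genotype effect differed between CD4 and CD8 cells was tested directly as the cell type by genotype term. Of 35 members 0 were called (edgeR, lowest adjusted p = 0.129), where 3.45% of genes were, 1.83% with a higher and 1.63% with a lower effect in CD4 cells. The share of all genes with an unadjusted p under 0.05 was not counted. Of the members, 12 had such a p, 8 of them neutrophil, 3 erythroid and 1 platelet. The erythroid rise is therefore not shown to differ between CD8 and CD4 cells. For Klf1 the term was 0.01 ± 1.12 and for Gata1 -0.66 ± 0.61, while for S100a9 it was 3.17 ± 1.09 (edgeR, adjusted p = 0.129). Leaving out control CD4 replicate 1 gave 1 call, Ltf.

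Other genes of the red cell programme were counted from a list of 28. Of all genes tested, 10.5% rose and 10.5% fell in CD8 cells, and 11.1% rose in CD4 cells. In CD8 cells 16 of 27 tested rose and 1 fell in L-gp130 libraries (edgeR, as above), and in CD4 cells 1 of 28 rose. In CD8 cells the smallest adjusted p belonged to Tfrc, the transferrin receptor, which also rises in dividing cells (159 ± 21.2 CPM for L-gp130 mice and 64.5 ± 8.08 CPM for controls, SD, n = 3 and n = 6, log2 fold change 1.30, edgeR, adjusted p = 1.21e-05). Sptb and Ank1, beta spectrin and ankyrin of the membrane skeleton, had log2 fold changes of 2.41 and 2.35, and Tfr2, the second transferrin receptor, 1.62. Bnip3l, which clears mitochondria from maturing red cells, fell by 0.30 on the log2 scale. The list's sum was 713 to 886 CPM in L-gp130 and 492.8 to 561 CPM in control CD8 libraries. In CD4 cells Tfrc was the 1 gene of the list that rose (1.41 ± 0.39, edgeR, adjusted p = 0.0293), and all 28 estimates were above 0, with a median of 1.68. With the sex of control replicate 5 taken from its reads, 0 of 28 were called and the median was 1.09.

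Of further platelet genes 2 of 18 were called in CD4 cells, where 18.9% of all genes were, and 2 of 17 in CD8 cells, where 21% were. Of the 18 tested in CD4 cells, Thbs1 (thrombospondin) rose by 1.11 and Itgb3, the beta chain that pairs with Itga2b, fell by 1.75 on the log2 scale. Mean Itgb3 was 61.1 ± 5.46 CPM in the L-gp130 group, against 205 ± 10.4 CPM in controls (SD, n = 6 each, edgeR, adjusted p = 3.99e-08). In CD8 cells, of 17 tested, Selp (P-selectin) rose by 2.37 and Itgb3 fell by 0.40. Of 14 further neutrophil genes tested in CD4 cells 4 rose, namely Il1r2 (2.93), Padi4 (2.10), Cxcr1 (1.77) and Pglyrp1 (0.86), where 11.1% of all genes were called higher, and 1 of 14 rose in CD8 cells, Pglyrp1 (0.36), against 10.5%. Of the 14 tested in CD4 cells, 4 had every L-gp130 library above every control library, against 7.68% of all genes. They were the same 4 genes. Il1r2, a decoy receptor for interleukin-1 that regulatory T cells also make, averaged 12.1 ± 3.58 CPM in the L-gp130 group, against 1.68 ± 0.194 CPM in controls (SD, n = 6 each). In CD8 cells 2 of 8 progenitor genes tested rose, Kit by 0.86 and Hoxa9 by 1.18, and 0 of 8 were called in CD4 cells.

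Markers of other spleen cells moved with genotype too, and their part in the results above was not tested. Of all genes tested in the fits with every library, 10.5% were called lower in CD8 cells and 7.75% in CD4 cells. In CD8 cells 9 of 10 genes of red pulp macrophages, which take up old red cells and surround maturing ones, fell in L-gp130 libraries. Their sum was 48.6 to 68.6 CPM in L-gp130 and 153 to 341 CPM in control CD8 libraries, and C1qa (log2 fold change -2.76), Hmox1 (-1.99), C1qb (-2.51) and Vcam1 (-2.57) had the smallest adjusted p (0.0011 to 0.00175, edgeR). In CD4 cells 2 of 10 fell, Cd163 and Slc40a1, with sums of 401 to 1598 CPM in L-gp130 and 453 to 1290 CPM in control CD4 libraries. Without the 2 libraries that stood apart 9 of 10 fell, but with the sex of control replicate 5 taken from its reads 1 of 10 did. Of 8 B cell genes, 3 fell in CD4 cells (Fcrla, Cd79b and Ms4a1). Without those 2 libraries 8 did, and with that sex taken from the reads 1 did. In CD8 cells 0 of 8 B cell genes were called, with sums of 54.4 to 79.3 CPM in L-gp130 and 41.6 to 105.6 CPM in control libraries.

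Of all genes tested, 11.1% were called higher and 7.75% lower in CD4 cells, and 10.5% each way in CD8 cells. Proliferation genes rose in 6 of 6 cases in CD4 and 5 of 6 in CD8 cells, among them Top2a (1.65 in CD4, 0.97 in CD8). Their sum was 470 to 1773 CPM in L-gp130 and 186 to 569 CPM in control CD4 libraries, and 405 to 569 CPM in L-gp130 and 149.6 to 367 CPM in control CD8 libraries. T cell genes fell in 5 of 10 cases in CD8 cells, Cd247, Cd8b1, Cd8a and Cd3g with the smallest adjusted p (0.000647 to 0.0114, edgeR) and log2 fold changes of -0.67 to -0.36, and 1 of 10 fell in CD4 cells, Cd247 by 0.35. Monocyte genes gave 1 call among 6 in CD8 cells, a fall of Ly6c2 by 0.67, and 0 among 6 in CD4 cells. The CD8 count is near the share of all genes called there in either direction, 21%. Genes of basophils, eosinophils and mast cells gave 0 calls among 8 tested in CD8 and 1 tested in CD4 cells.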

How the data were processed

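RNA of CD4+ and CD8+ T cells selected from spleen was sequenced as polyA RNA in paired, unstranded reads in 21 libraries. Per the submitters' processing notes, cutadapt 3.4, Trimmomatic 0.39, Salmon 1.5.2 and edgeR 3.34.1 were used with build GRCm38. The authors deposited gene tables of estimated counts, 1 per cell type, and per library Salmon files with estimated read counts and TPM per transcript. Gene symbols came from GENCODE vM21, with 51115 of 51201 IDs matched.

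Deposited estimated counts were rounded and fitted in edgeR 4.0.16 (R 4.3.3) per cell type: filterByExpr, TMM, robust quasi-likelihood, genotype plus labelled sex, Benjamini-Hochberg over all genes tested, called at an adjusted p under 0.05. SEs were obtained by dividing each log2 fold change by the root of its F statistic. Salmon reads summed per gene served the fit of all 21 libraries, which also gave the cell type by genotype term. No 2 libraries agreed within sampling noise (lowest chi-square per gene 9.73). The fits were tested on simulated data. Reads without molecular identifiers are not independent molecules.

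All 36 matched members were accounted for. A fixed set of 13 members and every called member were given by library, and up to 4 called genes of each other list were named by adjusted p. Members and lists were chosen with earlier results of these data known. Alternatives were another normalization, filters, no sex term, DESeq2 1.42.0, limma-voom (limma 3.58.1), Salmon reads, equal depth, a replicate block and each library left out, and, chosen after seeing the data, 2 CD4 libraries left out and the sex of control CD4 replicate 5 by its reads. One erythroid member is not reported here.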

Additional observations from a re-analysis of the deposited data

Results flagged for a closer look

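Of 48 checks of a gene or lineage sum within a group of 6 libraries, 6 found a highest library far from the others, by the gap to its neighbour over the group's range. The rule assumes that chance flags about 1 in 20 groups, a rate that was not checked for these values. L-gp130 CD4 replicate 6 gave 4 of them: Hbb-bs at 14456 CPM with the next library at 6877 CPM, Alas2 at 665.5 CPM with the next at 319 CPM, Elane at 3.14 CPM with the next at 0.716 CPM, and the sum over erythroid members at 40456 CPM with the next at 19285 CPM. These values share 1 library and the 3 erythroid ones share genes. Control CD4 replicate 1 stood apart for Mpo, at 1.79 CPM with the next at 0.734 CPM. Control CD8 replicate 3 stood apart for Hba-a1, at 132.9 CPM with the next at 49.9 CPM.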

How the results depend on the processing

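In CD4 cells the count of members called was 1 and became 3 without the sex covariate, 5 in DESeq2, 0 in limma-voom, 0 at equal depth, 3 with the sex of control replicate 5 taken from its reads, and 0 to 2 with single libraries left out. In CD8 cells it was 8 and became 5 to 11 with single libraries left out. The cell type by genotype count was 0 and became 0 to 1. A replicate block gave 12 calls in CD4 cells, all higher (8 erythroid, 3 platelet and 1 neutrophil). In CD8 cells it gave 13 (7 higher and 6 lower). Deviations of same-numbered libraries correlated at -0.205 to 0.151 in CD4 and -0.0564 to 0.178 in CD8 cells. These values do not decide whether same-numbered libraries share more than a label, which the labels do not give. Calls between control CD4 and control CD8 cells stayed within 17 to 19. Epb42 was not called without a filter on low counts or with one at 1 CPM.

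Some estimates turned in sign, none of them called. With single libraries left out, CD4 estimates ran from -0.037 (without L-gp130 replicate 6) to 0.97 for Hba-a1, from -0.10 (the same) to 0.97 for Hbb-bs and from -0.14 (the same) to 1.13 for Pf4. In CD8 cells they ran from -0.26 to 0.058 for Pf4 (above 0 without control replicate 3), from -0.018 (without control replicate 6) to 0.34 for Itga2b, from -0.26 to 0.44 for Elane (above 0 without L-gp130 replicate 2, 0.13, and control replicates 3 and 4, 0.27 and 0.44) and from -0.21 to 0.36 for Mpo (above 0 without L-gp130 replicate 3, 0.01, and control replicates 3 and 4, 0.27 and 0.36). Elane was 0.25 in limma-voom and 0.11 with the block, and Mpo 0.20 and 0.14. Correlations turned to -0.281, -0.728 and -0.738 in control CD4 and to -0.639 in control CD8 libraries without 2 libraries each. The cause was not tested. Few counts limit Epb42, Elane, Ly6g and the platelet members.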
